A study of Sus scrofa with 6 samples.

Results

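The extracellular matrix genes of cultured porcine granulosa cells (GCs), which surround the oocyte in the follicle, were described from their mRNA levels with and without an introduced *RBP4* gene. A gene was taken when its Ensembl pig name began with COL, LAMA, LAMB, LAMC or NID and a digit, or with FBLN, FBN, EFEMP, LTBP, THBS, MATN or EMILIN, or was 1 of 14 names given in full, such as *FN1* or *DCN*. By this rule 74 of the 17950 genes were found, among them 30 collagen chains and 8 laminin chains. Of the 14 names given in full, 12 were matched. The names *ACAN* and *LOXL2*, and also *COL1A1* and *COL4A1*, were not matched by name, and these genes were not analysed here.

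The cells came from ovaries of pre-pubertal Landrace gilts and were grown in serum-containing medium. Both groups were infected with lentivirus for 72 h, the pLVX-*RBP4* group with pLVX-IRES-ZsGreen carrying porcine *RBP4* and the CTRL group with the same vector without it, so that ZsGreen was shared by both. Follicular fluid of slaughterhouse ovaries was the source of the cells, and the labels do not tie a library to an animal. Each group had 3 libraries, and the deposited table holds a single FPKM (fragments scaled to transcript length and to library size) for each gene and group. Libraries were not analysed one by one, so the spread between replicates is not known, no test between the groups was computed, and all values are the authors' group values. The number of fragments behind each gene's value is not held in the table. According to the study, more reads were mapped in the pLVX-*RBP4* libraries than in the CTRL libraries.

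Collagens form triple helices that assemble into fibrils, networks or beaded filaments. Laminins, nidogens, perlecan and collagen IV build basement membranes, and fibrillins, elastin and fibulins build elastic fibres. In the ovarian follicle a basement membrane separates the granulosa layer from the theca, and collagen fibrils are typical of the theca and stroma. Matricellular proteins such as thrombospondins and SPARC sit in the matrix and regulate adhesion and growth factors rather than bear load.

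The introduced gene, *RBP4*, had 1.10 FPKM in CTRL cells and 92.3 FPKM in pLVX-*RBP4* cells. Of 14 granulosa markers 7 were found by name, and they were present in both groups. *CYP11A1*, which starts steroid synthesis, had 673 and 669 FPKM in the CTRL and pLVX-*RBP4* groups, *GATA4* had 59.2 and 57.8 FPKM, and *FSHR*, the receptor of follicle-stimulating hormone, had 9.99 and 8.47 FPKM. The names *CYP19A1* and *FOXL2* were not matched. Among the markers of other cells, 6 of 8 fibroblast and stromal markers were found, with a summed level of 893 FPKM in CTRL cells and 969 FPKM in pLVX-*RBP4* cells, most of it *ACTA2* (644 and 688 FPKM). *S100A4* was also higher in pLVX-*RBP4* cells, with 211 and 248 FPKM. The receptor genes of this list, *PDGFRA* (12.6 and 11.2 FPKM) and *PDGFRB* (19.7 and 18.5 FPKM), had slightly lower values in pLVX-*RBP4* cells, and *CD248* had 4.50 and 2.90 FPKM. The study lists *CD248* among its downregulated genes, which its RT-qPCR did not bear out. The 3 muscle markers summed to 1830.2 and 1912 FPKM, nearly all of it *TAGLN* (1809 and 1891 FPKM). *TAGLN* and *CNN1* were slightly higher in pLVX-*RBP4* cells, whereas *MYH11* was lower, with 2.17 and 1.54 FPKM. The 3 of 7 endothelial markers summed to 20.4 and 19.5 FPKM. The 3 of 7 blood and immune markers summed to 47.2 and 53.7 FPKM, mostly *CD14*, and the 3 of 7 epithelial markers to 13.3 and 13.5 FPKM. The 3 of 4 theca markers summed to 2.14 and 2.04 FPKM, with *LHCGR* at 0.209 and 0.0937 FPKM and *INSL3* listed at 0 in CTRL cells. Fewer cells of a type and less RNA per cell cannot be told apart in these bulk values, and the part of other cells in the matrix values was not tested.

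Of the 74 genes, 51 had at least 1 FPKM as the mean of both groups and were kept for counts, 38 had at least 10 FPKM, and 16 had at least 100 FPKM. Thrombospondin 1 (*THBS1*, ENSSSCG00000004789), an adhesive glycoprotein that can activate latent TGF-beta, was the most abundant. It had 3959 FPKM in CTRL cells and 3492 FPKM in pLVX-*RBP4* cells and ranked 18th of all genes by mean FPKM. *SPARC* (ENSSSCG00000017082), a collagen-binding matricellular protein, followed with 1683 and 1802 FPKM at rank 59. *THBS1* alone made up 39.8% of the summed FPKM of the 74 genes in CTRL cells and 35.8% in pLVX-*RBP4* cells, and the 30 collagen chains together made up 19.5% and 21%. The 74 genes held 0.881% of the summed FPKM of all genes in CTRL cells and 0.913% in pLVX-*RBP4* cells. This order turned when the single gene with the highest FPKM was left out of the sum, with 1.36% and 1.23%. FPKM values are compared between genes here per length of the annotated transcript, and an incomplete gene model would alter such a comparison.

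**Figure D1:**
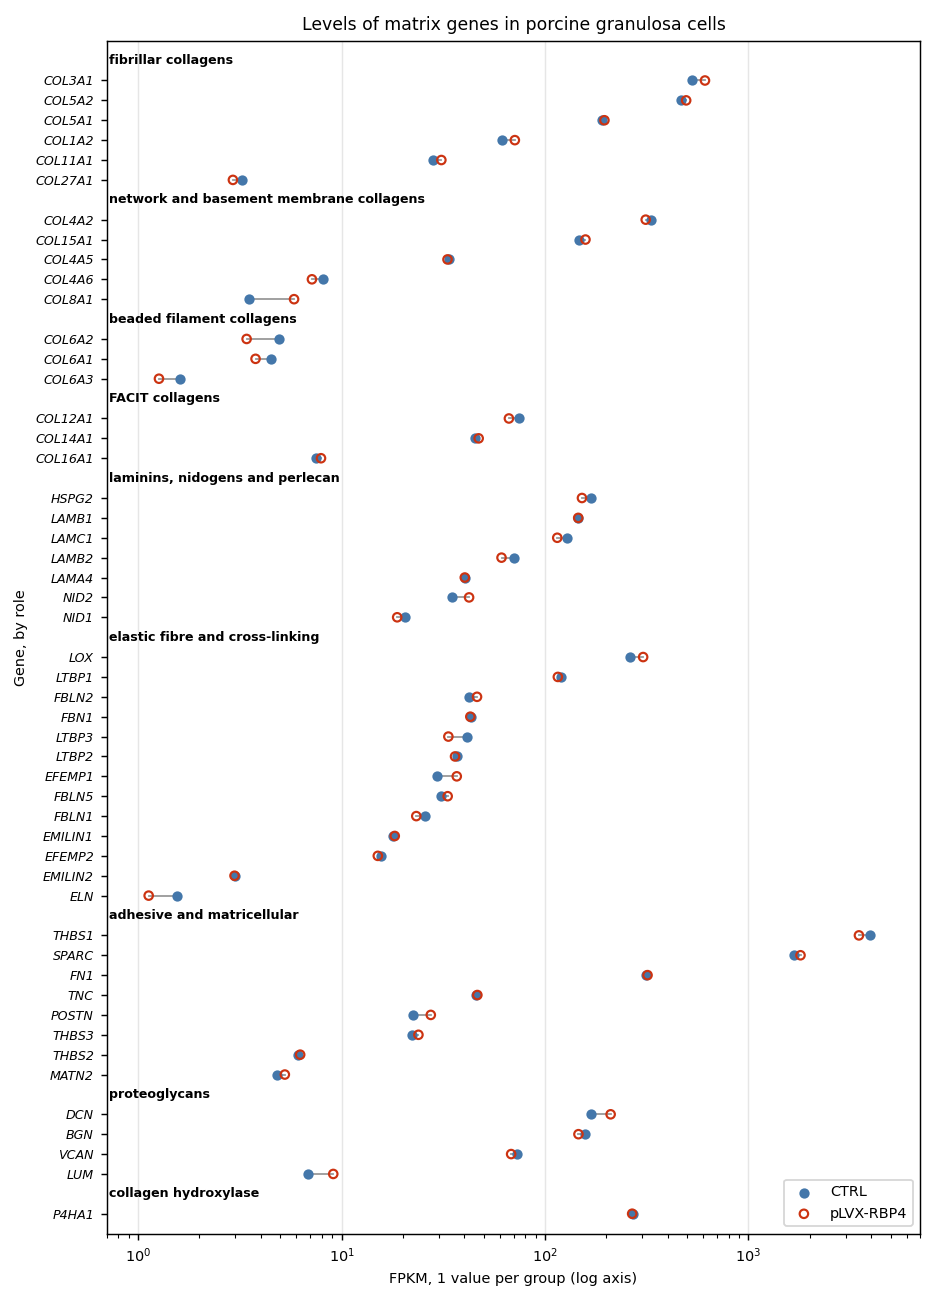
FPKM on a log axis of the 50 matrix genes with a mean of at least 1.2 FPKM, grouped by role, with filled points for the CTRL group and open points for the pLVX-*RBP4* group (1 value per group). The levels span from 1.13 FPKM for *ELN* to 3959 FPKM for *THBS1*, while the points of a gene mostly lie close to each other, the widest gap being that of *COL8A1*.

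Differences between the groups were small for most matrix genes. They were taken as log2(FPKM + 1) in pLVX-*RBP4* cells minus that in CTRL cells, a scale on which differences of weakly expressed genes are understated. The 51 genes had a median difference of -0.0013, against 0.0014 for all 12382 genes above the same limit. The lower and upper quartiles of the matrix genes were -0.12 and 0.10, and those of all genes -0.12 and 0.14. In the pLVX-*RBP4* group 25 matrix genes were higher and 26 lower, while 50.2% of all genes were higher and 49.8% lower. This split was 20 to 31 with both groups scaled to the same upper quartile and 33 to 18 after rescaling to a common sum. The median of all genes moved with it. With a common upper quartile the median was -0.036 for the matrix genes and -0.033 for all genes. With a common sum it was 0.075 and 0.072. The common sum, here and below, includes the single gene with the highest FPKM. Without that gene the share of the 74 genes went from 0.881% to 1.36% in CTRL cells and from 0.913% to 1.23% in pLVX-*RBP4* cells. Results at a common sum therefore depend on this gene, and a common sum without it was not tried.

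A gene was called when the 2 groups differed by at least 1.2-fold on the log2(FPKM + 1) scale. By this limit 6 of the 51 genes (11.8%) were higher in pLVX-*RBP4* cells, beside 11% of all genes, and 3 (5.88%) were lower, beside 8.63% of all genes. The shares were thus near the background. The split of 6 to 3 was 4 to 3 with a common upper quartile, where 8.66% of all genes were higher and 11.1% lower. It was 9 to 1 after rescaling to a common sum, where 17.3% of all genes were higher and 4.82% lower. At 1.5-fold only *COL8A1* was called as deposited, which was higher, as were 1.49% of all genes, and no matrix gene was lower, beside 1.28% of all genes. With a common upper quartile *COL8A1* fell short of 1.5-fold (0.57).

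**Figure D2:**
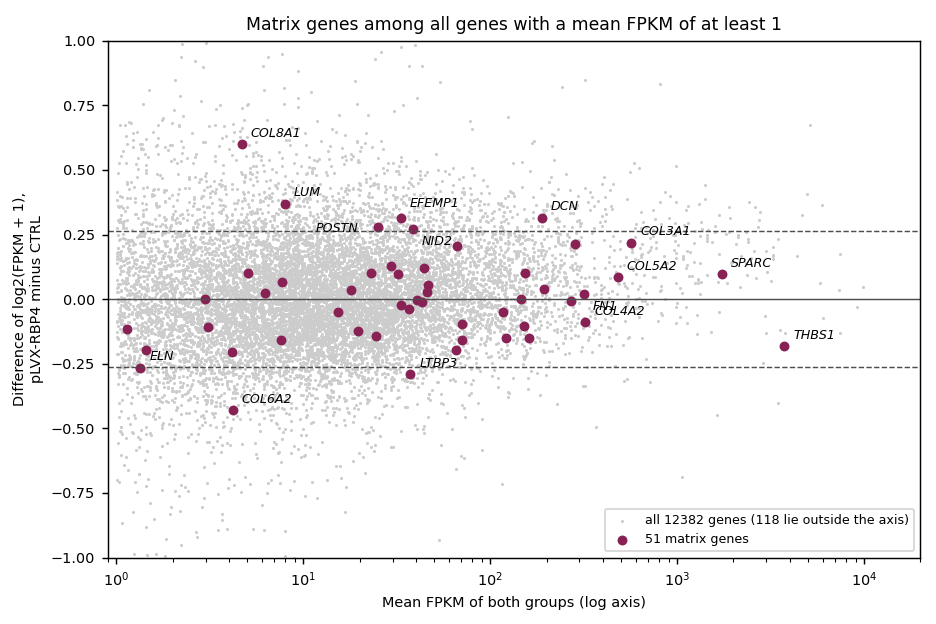
Difference of log2(FPKM + 1), pLVX-*RBP4* minus CTRL, against the mean FPKM of both groups (log axis) for the 51 matrix genes (dark points) and all 12382 genes (grey points, 118 of them outside the axis). The dashed lines mark 1.2-fold, and the 9 matrix genes beyond them lie among many grey points at the same level.

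The counts were also set beside those of all genes at the same level. Of the 16 matrix genes with at least 100 FPKM, 1 was at least 1.2-fold higher in pLVX-*RBP4* cells and none was lower, whereas 15.8% of the 1092 genes at this level were higher and 2.47% lower. The median difference was 0.011 for the 16 genes and 0.084 for the 1092 genes. Between 10 and 100 FPKM the 22 matrix genes had a median of 0.012, all 5810 genes of 0.0043, and 3 matrix genes were called higher (10.1% of all genes) and 1 lower (6.23% of all genes). Between 1 and 10 FPKM the 13 matrix genes had a median of -0.11 and all 5480 genes of -0.020, with 2 called higher (11.1% of all genes) and 2 lower (12.4% of all genes). These shares describe genes and were not tested.

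Among the fibrillar collagens, which bear tension in connective tissue, *COL3A1* (ENSSSCG00000016034) was the most abundant. It had 525 FPKM in CTRL cells and 611 FPKM in pLVX-*RBP4* cells, a difference of 0.22 on the log2 scale. *COL1A2* (ENSSSCG00000015326), a chain of collagen I, had 61.5 and 71.1 FPKM, a difference of 0.21. Both were higher in pLVX-*RBP4* cells by nearly the same factor, 1.16 for either gene. The chains of collagen V, which sets the diameter of fibrils, differed less, with 465.8 and 494 FPKM for *COL5A2* (0.085) and 190.4 and 195.8 FPKM for *COL5A1* (0.041). *COL11A1*, a minor chain best known from cartilage, had 28.2 and 30.9 FPKM (0.13), and *COL27A1* had 3.23 and 2.92 FPKM (-0.11). Of the 6 fibrillar chains kept, 5 were higher in pLVX-*RBP4* cells as deposited. Of all genes 50.2% were higher, and of those with at least 100 FPKM 67.1%. The same 5 chains were higher under each of the 3 scalings, which shift all genes by less than 0.1. None of the 6 reached 1.2-fold as deposited. Their median was 0.11 as deposited, 0.069 with a common upper quartile and 0.18 with a common sum. After rescaling to a common sum, *COL3A1* and *COL1A2* passed 1.2-fold. *COL5A3*, *COL2A1* and *COL11A2* were below the limit of 1 FPKM, with at most 0.266 FPKM in either group.

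The collagen VI chains, which form beaded filaments near basement membranes, were weakly expressed and lower in pLVX-*RBP4* cells. *COL6A2* (ENSSSCG00000028022) had 4.94 FPKM in CTRL cells and 3.41 FPKM in pLVX-*RBP4* cells, a difference of -0.43, the lowest of the 51 genes. *COL6A1* had 4.50 and 3.78 FPKM (-0.20) and *COL6A3* 1.60 and 1.27 FPKM (-0.20). All 3 chains kept were lower as deposited, beside 49.8% of all genes, and under each scaling. Without the added 1, their log2 ratios were -0.53, -0.25 and -0.34, so that *COL6A3* also passed 1.2-fold. *COL6A5* had 0.00542 and 0.00824 FPKM.

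Among the network and basement membrane collagens, *COL4A2* (ENSSSCG00000009545), a chain of the most widespread collagen IV, had 333 FPKM in CTRL cells and 313 FPKM in pLVX-*RBP4* cells (-0.090). *COL4A5* had 33.7 and 33.2 FPKM (-0.021) and *COL4A6* 8.10 and 7.15 FPKM (-0.16). *COL4A4* and *COL4A3*, chains typical of the kidney filter, did not reach 1 FPKM, the former having 0.971 and 0.777 FPKM and the latter 0.289 and 0.261 FPKM. The collagen IV chains were thus lower in pLVX-*RBP4* cells throughout as deposited, but *COL4A5* was higher after rescaling to a common sum. *COL15A1*, a collagen that links basement membranes to the stroma, had 147.3 and 158 FPKM (0.10).

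*COL8A1* (ENSSSCG00000011973), a short-chain network collagen known from vessel walls and the cornea, had the largest difference of all 51 genes. It had 3.51 FPKM in CTRL cells and 5.84 FPKM in pLVX-*RBP4* cells, a difference of 0.60 and a ratio of 1.66. Over all pseudocounts and scalings tried, its difference ranged from 0.57 to 0.73. *COL10A1* was listed at 0 in pLVX-*RBP4* cells and at 0.0216 FPKM in CTRL cells.

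The fibril-associated collagens decorate the surface of fibrils. *COL12A1* had 74.3 FPKM in CTRL cells and 66.4 FPKM in pLVX-*RBP4* cells (-0.16), *COL14A1* had 45.4 and 47.2 FPKM (0.053), and *COL16A1* had 7.51 and 7.92 FPKM (0.067). No gene of this group reached 1.2-fold. *COL9A1* and the 5 other collagens found (*COL13A1*, *COL17A1*, *COL23A1*, *COL26A1* and *COL28A1*) had at most 0.177 FPKM in either group. As shares of the summed FPKM of all 30 collagen chains, *COL3A1* made up 27.1% in CTRL cells and 29.8% in pLVX-*RBP4* cells, *COL5A2* 24.0% in both, *COL4A2* 17.1% and 15.2%, and *COL1A2* 3.17% and 3.46%.

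Most genes of the laminin, nidogen and perlecan group had lower values in pLVX-*RBP4* cells. Perlecan (*HSPG2*, ENSSSCG00000003514), the large heparan sulfate proteoglycan of basement membranes, had 169 FPKM in CTRL cells and 152 FPKM in pLVX-*RBP4* cells (-0.15). The laminin chains *LAMC1* (127.5 and 115 FPKM, -0.15) and *LAMB2* (70.2 and 61.1 FPKM, -0.20) were lower, whereas *LAMB1* (145.4 and 145.6 FPKM, 0.0017) and *LAMA4* (40.4 and 40.3 FPKM, -0.0027) had nearly equal values.

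The nidogens, which bridge laminin and collagen IV, went opposite ways. *NID2* (ENSSSCG00000005030) had 34.9 FPKM in CTRL cells and 42.3 FPKM in pLVX-*RBP4* cells, a difference of 0.27, and *NID1* had 20.5 and 18.8 FPKM (-0.12). Of the 8 genes of this group kept, 6 were lower as deposited, beside 49.8% of all genes, and 2 were higher. Their median was -0.12. The number of lower genes was 5 with a common median or a common sum and 7 with a common upper quartile, where *NID2* no longer reached 1.2-fold (0.24). *LAMA3*, *LAMB3* and *LAMC3*, chains known from epithelia and nerve, had at most 0.322 FPKM in either group.

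**Figure D3:**
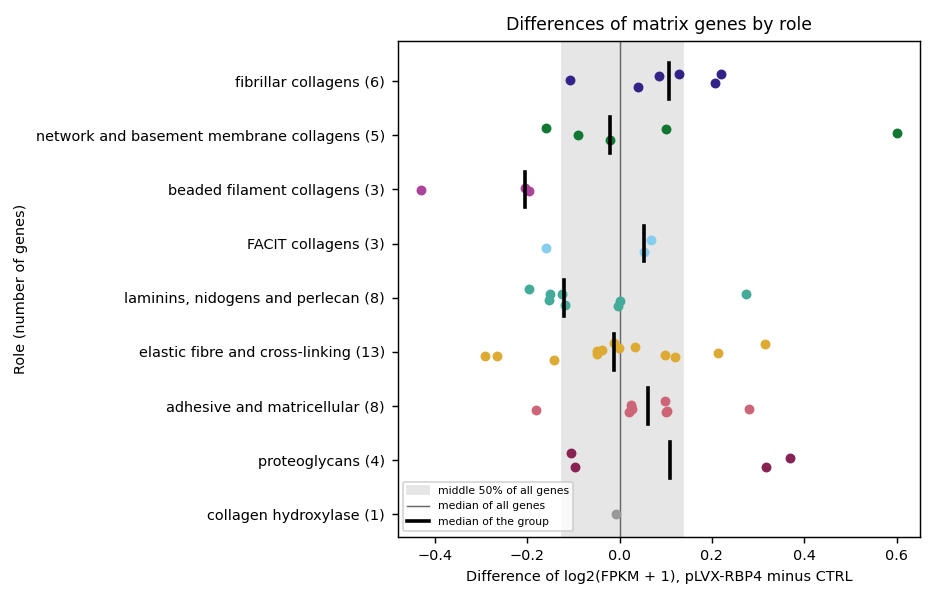
Difference of log2(FPKM + 1), pLVX-*RBP4* minus CTRL, for each of the 51 matrix genes by role, with black bars for group medians and a grey band from the lower to the upper quartile of all 12382 genes (-0.12 to 0.14). The medians run from -0.20 for the 3 beaded filament collagens to 0.11 for the fibrillar collagens and the proteoglycans, and only the beaded filament collagens lie wholly outside the band.

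The genes of elastic fibres and cross-linking had values on both sides. Lysyl oxidase (*LOX*, ENSSSCG00000014232), which cross-links collagen and elastin, had 262 FPKM in CTRL cells and 304 FPKM in pLVX-*RBP4* cells (0.21). *EFEMP1* (ENSSSCG00000008397), a fibulin, had 29.4 and 36.8 FPKM, a difference of 0.32. *LTBP3* (ENSSSCG00000012985), which holds latent TGF-beta in the matrix, had 41.2 and 33.5 FPKM, a difference of -0.29. Elastin itself (*ELN*, ENSSSCG00000025858) was near the limit of 1 FPKM, with 1.56 and 1.13 FPKM, a difference of -0.27 and a log2 ratio of -0.47. After rescaling to a common sum *LTBP3* and *ELN* (-0.21 for both) no longer reached 1.2-fold.

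*LOX* and the genes that follow stayed within 1.2-fold as deposited, and *LOX* passed it after rescaling to a common sum (0.29). *LTBP1* had 119.7 FPKM in CTRL cells and 115.6 FPKM in pLVX-*RBP4* cells (-0.049), *FBN1*, the main microfibril protein, had 43.3 and 42.9 FPKM (-0.012), *FBLN2* had 42.5 and 46.3 FPKM (0.12) and *FBLN1* had 25.8 and 23.3 FPKM (-0.14). *LTBP2*, *FBLN5*, *EMILIN1*, *EFEMP2* and *EMILIN2* lay between -0.048 and 0.099. Of the 13 genes kept, 5 were higher and 8 lower as deposited, and 10 were higher after rescaling to a common sum, so no direction of the group held under all scalings. *EMILIN3*, *FBN2* and *FBLN7* had at most 0.327 FPKM.

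Of the 8 adhesive and matricellular genes kept, *THBS1* was the exception with a lower value in pLVX-*RBP4* cells (-0.18). The other 7 were higher as deposited, beside 50.2% of all genes, and 4 of the 8 were higher with a common upper quartile. Fibronectin (*FN1*, ENSSSCG00000016174) had 315 FPKM in CTRL cells and 319 FPKM in pLVX-*RBP4* cells (0.020). *SPARC* differed by 0.098. Periostin (*POSTN*, ENSSSCG00000009361), which promotes collagen cross-linking, had 22.4 and 27.4 FPKM, a difference of 0.28, which was 0.24 and under 1.2-fold with a common upper quartile. *TNC* had 45.6 and 46.5 FPKM (0.026), *THBS3* 22.2 and 23.9 FPKM (0.10), *THBS2* 6.14 and 6.26 FPKM (0.025) and *MATN2* 4.83 and 5.26 FPKM (0.10). *THBS4*, *MATN1*, *MATN3* and *MATN4* had at most 0.113 FPKM.

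The small leucine-rich proteoglycans, which bind collagen fibrils, were split. Decorin (*DCN*, ENSSSCG00000000915) had 169 FPKM in CTRL cells and 210.1 FPKM in pLVX-*RBP4* cells, a difference of 0.32. Lumican (*LUM*, ENSSSCG00000000916) had 6.82 and 9.10 FPKM, a difference of 0.37, the largest positive one of the 51 genes after that of *COL8A1*. Biglycan (*BGN*), their close relative, had 157 and 146 FPKM (-0.10), and the large hyaluronan-binding proteoglycan versican (*VCAN*), which is part of the expanded cumulus matrix, had 72.9 and 68.1 FPKM (-0.097). *P4HA1*, a subunit of the enzyme that hydroxylates proline in collagen, had 269.7 and 268.1 FPKM (-0.0084). The directions of *DCN*, *LUM*, *BGN* and *VCAN* held under each scaling, whereas that of *P4HA1* turned after rescaling to a common sum.

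Ratios within a group do not depend on the scaling between groups, and they were taken for chains that assemble together and, chosen after the values were seen, for related genes. The pairs *COL3A1* with *COL1A2* and *LAMB1* with *LAMB2* are related chains too, and were not among the planned partner chains. The ratio of *COL5A1* to *COL5A2* was 0.409 in CTRL cells and 0.396 in pLVX-*RBP4* cells, and that of *COL3A1* to *COL1A2* was 8.54 and 8.60, so these fibrillar pairs kept nearly the same proportion. Basement membrane chains differed more between the groups, with *LAMB1* to *LAMB2* at 2.07 and 2.38, *LAMB1* to *LAMC1* at 1.14 and 1.27, *LAMA4* to *LAMC1* at 0.317 and 0.351, and *COL4A5* to *COL4A6* at 4.16 and 4.64. *COL6A1* to *COL6A2* was at 0.911 and 1.11, and *COL6A1* to *COL6A3* at 2.82 and 2.98. The widest differences were those of the pairs that follow, picked after their values were seen. *EFEMP1* to *FBLN1* was at 1.14 in CTRL cells and 1.58 in pLVX-*RBP4* cells, *DCN* to *BGN* at 1.07 and 1.44, and *NID2* to *NID1* at 1.70 and 2.26.

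**Figure D4:**
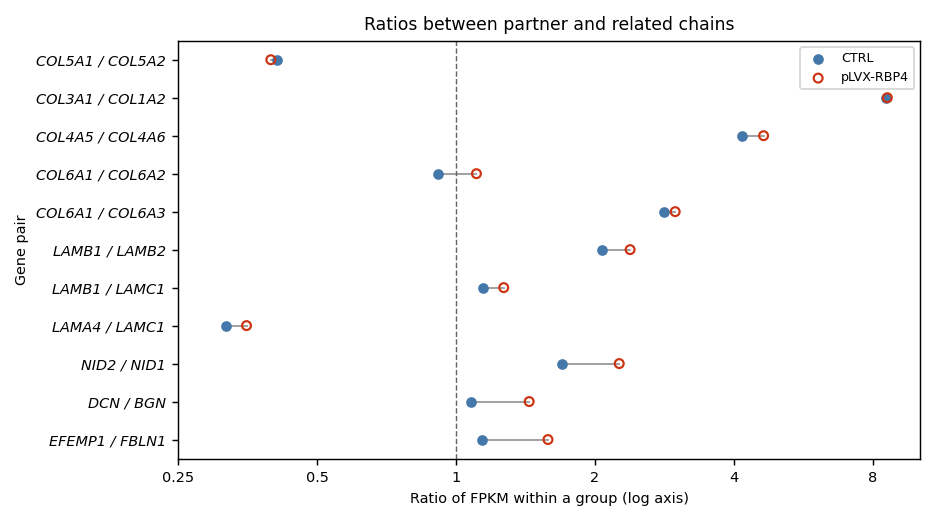
Ratio of FPKM between partner or related matrix genes within a group (log axis), with filled points for CTRL and open points for pLVX-*RBP4*. The *COL5A1* to *COL5A2* and *COL3A1* to *COL1A2* points nearly coincide, whereas *NID2* to *NID1*, *DCN* to *BGN* and *EFEMP1* to *FBLN1* lie to the right in pLVX-*RBP4* cells.

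Some matrix genes lie side by side in the genome. In the RefSeq annotation of Sscrofa11.1, which was used for gene order alone and held 73 of the 74 names, 5 pairs of these genes had no other protein-coding gene listed between their starts. In 4 pairs both genes had a mean FPKM of at least 1, and in each of them both genes differed in the same direction as deposited. Values are given for 3 of the 4. *DCN* and *LUM* on chromosome 5 (0.32 and 0.37) and *COL3A1* and *COL5A2* on chromosome 15 (0.22 and 0.085) were higher in pLVX-*RBP4* cells. *COL4A5* and *COL4A6* on chromosome X (-0.021 and -0.16) were lower, although *COL4A5* was higher after rescaling to a common sum. The other pair, *COL4A3* and *COL4A4* on chromosome 15, was below the limit. With 4 pairs this is a description and was not tested. The share of all neighbouring gene pairs that differ in the same direction was not computed.

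The 23 matrix genes below a mean of 1 FPKM carried little signal. The highest mean was 0.874 FPKM, for *COL4A4*, and 14 genes were under 0.1 FPKM. In the pLVX-*RBP4* group 7 were higher and 16 lower, and the split of all genes below the limit was not computed. With no filter the median difference was -0.0075 for the 74 matrix genes and -0.0029 for all genes. *COL13A1*, *COL28A1* and *MATN1* were listed at 0 in CTRL cells, and *COL10A1* and *COL26A1* in pLVX-*RBP4* cells. *COL2A1* and *MATN1*, which mark cartilage, were thus at or near 0 in both groups.

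The machinery that makes and exports collagen was abundant. Of 30 genes listed, 22 were found and 21 had a mean FPKM of at least 1, with a median difference of 0.041. None was at least 1.2-fold higher, beside 11% of all genes, and 1 was lower, beside 8.63% of all genes, the prolyl 3-hydroxylase gene *P3H2*, with 3.33 FPKM in CTRL cells and 2.46 FPKM in pLVX-*RBP4* cells (-0.32). After rescaling to a common sum 2 were at least 1.2-fold higher and 0 lower, beside 17.3% and 4.82% of all genes. The most abundant were the disulfide isomerase gene *PDIA3* (1265 and 1331 FPKM, 0.073), *FKBP10*, a collagen chaperone (544 and 536 FPKM, -0.022), and the lysyl hydroxylase gene *PLOD1* (467 and 412 FPKM, -0.18). *P4HA2*, a relative of *P4HA1*, had 281 and 301 FPKM (0.098).

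Of 16 genes for matrix receptors, 13 were found, all with a mean FPKM of at least 1, and their median difference was -0.044. *ITGA5*, the alpha chain of the fibronectin receptor, had 228 FPKM in CTRL cells and 412 FPKM in pLVX-*RBP4* cells (0.85). The study lists *ITGA5* among its upregulated genes and reports the same direction by RT-qPCR. *ITGA5* was the only one of the 13 (7.69%) at least 1.2-fold higher, beside 11% of all genes. The other 12 receptor genes were lower by less than 1.2-fold as deposited, beside 49.8% of all genes with any lower value. After rescaling to a common sum 9 of the 13 were higher, with a median of 0.024 beside 0.072 for all genes. *ITGA5* pairs with *ITGB1*. The latter had 737 and 731 FPKM (-0.013), and the ligand *FN1* differed by 0.020, as given above. The laminin receptor chain *ITGA6* had 60.6 and 60.2 FPKM (-0.0095), and the collagen receptor *DDR2* had 19.3 and 16.8 FPKM (-0.19).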

How the data were processed

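RNA of porcine GCs was sequenced in 6 libraries, 3 per group. According to the methods of the study, paired-end reads were aligned to Sscrofa10.2 with TopHat2, and FPKM and the comparison of groups were obtained with Cuffdiff of Cufflinks. Versions and the annotation release are not given in the sources used here. The deposited values are FPKM, computed by the authors, 1 per gene and group. Both columns were used and 0 were left out. The table gives no fragment number per gene, so no counting interval was computed.

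Of the 74 genes, 73 were named by a list that pairs Ensembl identifiers with symbols and 1 by the gene column of the study's supplementary tables. Names were matched from their first letter. log2(FPKM + 1) was computed, and genes whose FPKM averaged at least 1 over both groups were kept. A gene was called at 1.2-fold, or 1.5-fold. With 1 value per group no test, SE or p-value could be had here. The study's own comparison of its triplicates was not used for the counts. The counting steps were tested on simulated data.

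The members, roles, lists and limits were chosen with earlier results of these data known. In each role the 3 most abundant genes, all genes past 1.2-fold and partner chains were to be named; further members were named so that all were accounted for, except 1 that is not reported here by name. No sequence was used. The software was Python 3.11.15 with matplotlib 3.10.9, pandas 2.3.3 and numpy 2.4.6.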

Additional observations from a re-analysis of the deposited data

How the results depend on the processing

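Values were recomputed with pseudocounts of 0.1 and 0.01, without the filter, with a limit of 5 FPKM, with the groups set to the same upper quartile, median or sum, with the mean in place of the median, and with the highest gene left out of the summed FPKM. A shift of 0.1 or more on the log2 scale counted as a move, as did a factor above 1.5 for a count or share. Of 38 values for the whole set of matrix genes 34 did not move by these limits. The median could not count as moved under a scaling, since each scaling shifts log2 values by less than 0.1. The number of lower genes was 42 of 74 with no filter. The number at least 1.2-fold lower was 1 with a limit of 5 FPKM and 1 with a common sum. The share of summed FPKM in the CTRL group was 1.36% without the highest gene. The median ranged from -0.036 with a common upper quartile to 0.075 with a common sum, where the median of all genes was 0.072.

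Of 38 single genes followed through the pseudocounts and scalings, 32 kept their direction throughout, and 6, *COL4A5*, *FN1*, *LAMA4*, *LAMB1*, *LTBP1* and *P4HA1*, did not. A common sum without the highest gene was not among these scalings. No gene past 1.2-fold changed its direction. This was fixed in advance, since each scaling shifts all genes by nearly the same amount, below the 1.2-fold limit. Smaller pseudocounts only move a difference away from 0. The log2 ratio with no pseudocount, added after seeing the data, moved 4 of the 38, *COL6A2*, *COL6A3*, *COL8A1* and *ELN*, each away from 0.

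The table of RefSeq genes held no Ensembl identifiers and the name *COL4A3BP* was not matched, so these alternatives were not run, and protein lengths were not used. No paired analysis was possible because the table holds 1 value per group, and no library was left out for the same reason. The spread between libraries is not known.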

Other observations

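Among other matrix and matricellular genes, 19 of 26 listed were found and 15 had a mean FPKM of at least 1, with a median log2 difference of -0.0080. *ECM1*, a secreted glycoprotein of skin and basement membranes, had 1874 FPKM in CTRL cells and 1374 FPKM in pLVX-*RBP4* cells (-0.45). It was the only one of the 15 (6.67%) at least 1.2-fold lower as deposited, beside 8.63% of all genes. *ECM2* was the only one at least 1.2-fold higher as deposited, beside 11% of all genes, with 1.57 and 2.13 FPKM (0.28). *CCN2*, a target of TGF-beta and YAP signals, had 3034 and 2896 FPKM (-0.067), and its relative *CCN1* had 430 and 427 FPKM (-0.0080). The heparan sulfate proteoglycan agrin (*AGRN*) had 36.2 and 30.1 FPKM, a difference of -0.26 just inside the limit. With a common upper quartile 2 of the 15 genes were at least 1.2-fold lower and 0 higher, beside 11.1% and 8.66% of all genes. With a common sum 1 was lower and 2 were higher, beside 4.82% and 17.3% of all genes. Fibromodulin (*FMOD*), another small leucine-rich proteoglycan, had 133.6 and 135.6 FPKM (0.021). *MFAP5*, a microfibril protein, had 0.401 FPKM in CTRL cells and was listed at 0 in pLVX-*RBP4* cells.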
